A study of Mus musculus with 6 samples.

Results

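The connexin genes of the embryonic heart are described here in control and Casz1 mutant mouse hearts: Gja1, Gja3, Gja4, Gja5, Gjb2, Gjc1 and Gjd3. These 7 genes were listed by name and matched to a deposited expression table of 23290 gene entries through its RefSeq transcript identifiers, and each matched exactly 1 entry. Matching by identifier mattered because RefSeq lists Gjc1 as an alias of Gjd3 and Cx43 as an alias of Gja3 as well as of Gja1. RNA was sequenced from whole hearts of C57BL/6 background at E10.5, each taken from its own embryo. The 3 control hearts carried 1 floxed Casz1 allele and no Cre (Nkx2-5+/+,Casz1f/+). The 3 mutant hearts carried floxed Casz1 on both chromosomes and Cre in place at 1 Nkx2-5 allele (Nkx2-5Cre/+,Casz1f/f). A floxed Casz1 allele was therefore common to both groups, and the mutants differed from the controls at the Nkx2-5 locus too. Cre from that locus acts in cells that use or have used Nkx2-5, so other heart cells keep Casz1.

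Connexins are proteins with 4 membrane-spanning segments, and 6 of them form a half-channel that docks with one on the next cell to make a gap junction. Ions and small molecules pass through these channels, and in the heart they carry the electrical impulse from cell to cell. Chamber muscle is known for Cx43 (Gja1) and Cx40 (Gja5), which conduct quickly, while the early heart tube and the nodes use Cx45 (Gjc1) and the low-conductance protein of Gjd3. Cx37 (Gja4) and Cx40 also join arterial endothelial cells. Cx46 (Gja3) is best known from the lens and Cx26 (Gjb2) from the inner ear and other epithelia.

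Expression was deposited as FPKM, which scales fragments by transcript length and by the mapped total of the library, so that levels of different genes can be set side by side. The table holds 1 pooled FPKM value per genotype and none per heart. Spread between hearts and sequencing depth are therefore unknown, and no SD can be given. Fold changes, p-values and q-values (p adjusted over all tested entries) are those of the authors' Cuffdiff test, with a call at q under 0.05. Standard errors (SE) and 95% intervals are the ones that test statistic implies. For Casz1 itself the authors' deposited table gives 6.61 FPKM in controls and 4.68 FPKM in mutants, a log2 fold change of -0.50 with an SE of 0.306 (q = 1.00). The floxed exons are not named in the sources used here, so this whole-gene value does not measure the deletion. Cardiomyocyte markers were abundant in both groups of hearts, at 8.59 FPKM or more each and up to 7496 FPKM.

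No connexin gene was called in the mutant hearts, and the largest difference among the abundant ones was in Gja5. Of the 7 genes, 6 had enough signal for the authors' test and 0 passed in either direction, while 65 of all 15387 tested entries did (0.422%). None of the 6 reached an unadjusted p under 0.05 either, against 3.17% of all tested entries. All 6 log2 fold changes lay below 0, with a median of -0.19, but Gjc1 moved just above 0 (0.0016) when fold changes were centred on the median of expressed entries. Over all tested entries the median was -0.02, and 54.6% had a mutant value below the control value. All 6 values come from the same hearts, so their shared sign is no set of independent observations.

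Control levels ran from 55.6 FPKM for Gja1 down to 0.0735 FPKM for Gjb2. Gja1 was the most abundant connexin, above 90.6% of tested entries in control hearts. Gja5, Gjc1 and Gja4 came next, and these 4 genes held 98.6% of the FPKM summed over the 7 in each genotype. The sum was 154 FPKM for controls and 131 FPKM for mutants. Gjd3, Gja3 and Gjb2 followed far below. The order of the 7 genes was the same in both genotypes, though Gja5 and Gjc1 nearly met in the mutants. Without values per heart, neighbours in this order cannot be tested against each other.

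**Figure D1:**
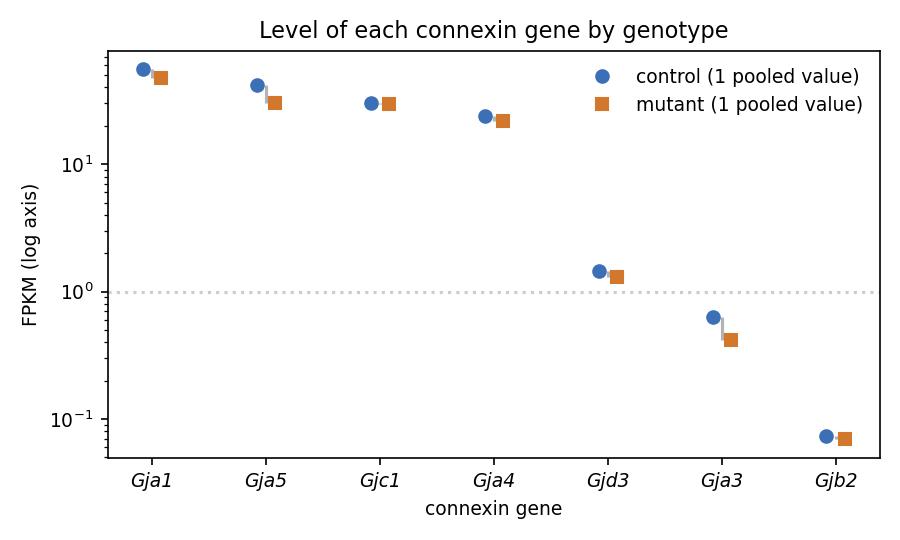
FPKM of the 7 connexin genes on a log axis, with 1 pooled value for control hearts (circles) and 1 for mutant hearts (squares), and a dotted line at 1 FPKM. Gja1, Gja5, Gjc1 and Gja4 lie between 21.8 and 55.6 FPKM, and the widest gap among them is that of Gja5.

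Gja5, the fast-conducting connexin of atrial and trabecular muscle and of arterial endothelium, stands in the authors' deposited table at 42.2 FPKM for controls and 30.1 FPKM for mutants. The control level was 1.40 times the mutant level (a log2 fold change of -0.49 with an SE of 0.296 and a 95% interval from -1.07 to 0.09). On the linear scale this interval runs from 0.478 to 1.07 times the control level. The unadjusted p of 0.0997 was the lowest of the 6 tested genes of the 7, and q was 1.00. At an unadjusted p under 0.1 Gja5 would be the 1 gene of these 6 counted, where 4.46% of all tested entries pass. Of the 12224 tested entries with at least 1 FPKM in either genotype, 2.99% had a lower log2 fold change than Gja5. Its share of the FPKM of the 7 genes was 27.5% in control and 23.0% in mutant hearts.

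Gja1, the main connexin of ventricular working muscle, stands in the authors' deposited table at 55.6 FPKM for controls and 47.8 FPKM for mutants. The log2 fold change of -0.22 had an SE of 0.287 and a 95% interval from -0.78 to 0.34 (q = 1.00), which allows a mutant level from 0.581 to 1.27 times the control level. Gja1 kept a near-constant share of the connexin FPKM, at 36.2% and 36.4%. The Gja1 level was 1.32 times that of Gja5 in control hearts and 1.59 times in mutant hearts. The intervals of both genes include 0, and the difference between their fold changes was not tested.

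Promoter sequence is shown for Gja5, which had the largest difference among the abundant connexins, and for Gja1, the most abundant one. Both are the 250 bases before the RefSeq start site in GRCm38, the assembly also called mm10, on the plus strand. Capitals mark matches to the NK2 factor core AAGTG, which was searched on both strands together with the T-box core TCACACC.
Gja5, chr3:97032152-97032401, plus strand: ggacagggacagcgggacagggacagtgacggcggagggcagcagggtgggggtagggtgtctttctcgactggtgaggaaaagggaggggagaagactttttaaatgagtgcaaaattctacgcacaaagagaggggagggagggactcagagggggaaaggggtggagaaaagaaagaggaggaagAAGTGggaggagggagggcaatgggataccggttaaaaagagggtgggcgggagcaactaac
Gja1, chr10:56377050-56377299, plus strand: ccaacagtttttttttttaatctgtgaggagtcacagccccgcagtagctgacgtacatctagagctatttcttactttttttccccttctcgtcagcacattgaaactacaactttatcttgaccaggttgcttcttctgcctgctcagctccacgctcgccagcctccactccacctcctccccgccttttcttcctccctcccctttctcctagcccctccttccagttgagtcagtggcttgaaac
NK2 and T-box factors, among them Nkx2-5 and Tbx5, are known regulators of Gja5 in heart muscle. The NK2 core was found once in the Gja5 window, from 62 to 58 bases before the start site, and on the strand of the gene. No such match was found in the Gja1 window or in the windows of Gja3 (which has 2 start sites), Gja4 and Gjb2. The core is short, and 40.7% of all 32851 promoter windows of this length hold it. The T-box core was in none of these 6 windows and in 3.33% of all windows. A match to these letters is a description of the sequence and not evidence of binding.

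Gjc1, the connexin of the early heart tube and later of the conduction system, was nearly level between genotypes. The authors' deposited table gives it 30.0 FPKM in controls and 29.7 FPKM in mutants, a log2 fold change of -0.02 with an SE of 0.284 and a 95% interval from -0.57 to 0.54 (q = 1.00). That interval still allows a mutant level from 0.672 to 1.46 times the control level, so a moderate change in either direction was not detectable. Gjc1 lay near the middle of the expressed entries, 50.2% of which had a lower log2 fold change. Its share of the connexin FPKM was 19.5% in control and 22.7% in mutant hearts. The Gja5 level was 1.41 times the Gjc1 level in control hearts and 1.01 times in mutant hearts.

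Gjd3, the low-conductance connexin of the atrioventricular node, stands in the authors' deposited table at 1.44 and 1.29 FPKM. The log2 fold change of -0.16 had an SE of 0.567 and a 95% interval from -1.27 to 0.95, the second widest of the 6. The Gja4 level was 16.5 times that of Gjd3 in control hearts and 16.9 times in mutant hearts. The Gjd3 entry spans only 837 bases, the length of the coding exon in GENCODE with its stop codon, whereas the RefSeq gene spans 3074 bases. Fragments from Gjd3 sequence outside that span are not in its FPKM, so its level may not compare with the others on an equal footing.

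Gja4, the connexin of arterial endothelium, stands in the authors' deposited table at 23.7 FPKM for controls and 21.8 FPKM for mutants. Its fold change on the log2 scale, -0.12, had an SE of 0.294 and a 95% interval from -0.70 to 0.45 (q = 1.00). The mutant level allowed by this interval runs from 0.616 to 1.37 times the control level. Endothelial and endocardial markers differed by a similar small amount: 8 of 8 were below the control value, 0 were called, and their summed level was 215 FPKM for controls and 187 FPKM for mutants (log2 -0.20). The lowest p belonged to Kdr, Cdh5 and Npr3, and none of the 8 was at 0. In bulk RNA, fewer endothelial cells and less RNA per cell cannot be told apart, and the part of these markers in the Gja4 and Gja5 values was not tested. Among 14 arterial endothelial genes, including Notch ligands and targets, 0 were called, 7 lay above 0 and 7 below, and the median was 0.02. Of these, Hey2 (log2 -0.68, q = 0.873), Jag1 (log2 0.68, q = 0.894) and Cxcr4 (log2 0.49, q = 1.00) had the lowest p in the authors' deposited table. Whole hearts were sequenced, so the values of these 14 genes, Hey2 among them, are not readings of endothelium alone.

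Gja3 and Gjb2 were low, both under 1 FPKM in each genotype, and only Gja3 had enough signal for a test. For Gja3 the authors' deposited table gives 0.638 FPKM in controls and 0.418 FPKM in mutants. A log2 fold change of -0.61 was the lowest of the 6, but its SE of 0.645 was the highest, with a 95% interval from -1.88 to 0.65 and q = 1.00. With a pseudocount of 1 FPKM the value was -0.21. Gjb2 read 0.0735 and 0.0693 FPKM, and the authors' deposited table marks it as too low for a test, so no fold change is given. In the same comparison 7 of 10 epithelial and foregut endoderm markers rose (Epcam, Cdh1, Cldn6, Foxa1, Shh, Krt8 and Esrp1) and 0 fell, with a summed level of 83.3 FPKM for controls and 177 FPKM for mutants. Gjb2, an epithelial connexin, did not reach the level of a test in those hearts.

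**Figure D2:**
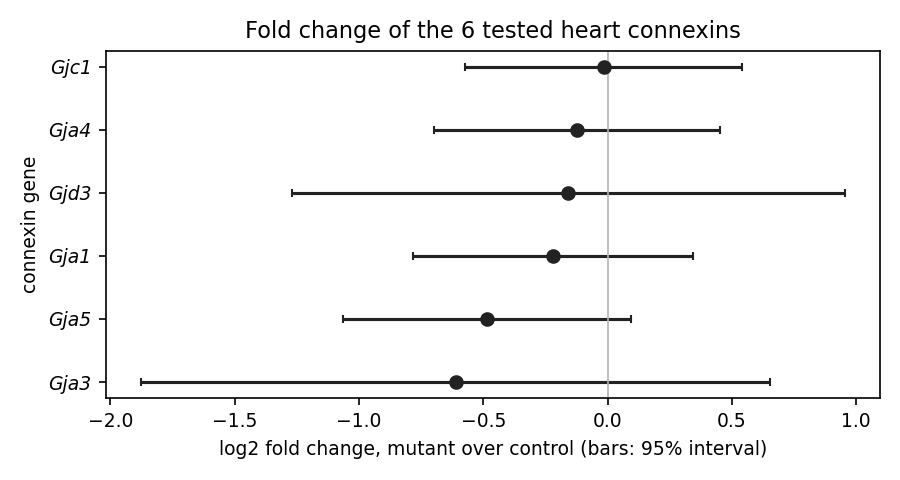
Log2 fold change (mutant over control) on the horizontal axis with the 95% interval implied by the authors' test statistic, for the 6 heart connexins with a test (points, with bars for the interval). All 6 intervals include 0, and that of Gja5 ends closest to it, at 0.09.

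The connexins share a compact gene structure and partly a place in the genome. In GENCODE M21 the transcripts tied to their RefSeq identifiers hold the whole coding sequence in 1 exon for all 7 genes, from 678 coding bases in Gjb2 to 1251 in Gja3. Noncoding exons bring the totals to 2 exons for Gja1, Gja3, Gja4, Gja5 and Gjb2, and to 3 for Gjc1. Gja1 lies on chromosome 10 from 56377300 to 56390419 and Gja5 on chromosome 3 from 97032402 to 97053634, in mm10. Gjd3 and Gjc1 are both on chromosome 11, 3.82 Mb apart, Gjd3 from 98982180 to 98983016 and Gjc1 from 102799478 to 102819686. Gja4 is on chromosome 4 from 127311420 to 127314039, and Casz1 lies 21.5 Mb away on the same chromosome. On chromosome 14 Gja3 runs from 57034460 to 57058030 and Gjb2 from 57098602 to 57104702, with 40.6 kb between them. A noncoding RNA gene of RefSeq, 4930573H18Rik, overlaps the Gja5 span and another, Gm32912, that of Gjb2. The sources used here do not say whether counting used strand, so fragments from these pairs may not be told apart.

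The rest of the connexin family added little RNA. The mouse family list held 20 genes, and all had an entry. The 13 others summed to 1.46 FPKM for controls and 1.92 FPKM for mutants, which was 0.94% and 1.45% of all connexin FPKM. None of them reached 1 FPKM, 8 were too low for a test, and of the 5 tested 0 were called, with 3 above 0 and 2 below. In the whole family of 11 tested genes the median log2 fold change was -0.16. Pannexins, related channel proteins that do not form gap junctions in most tissues, read 8.42 and 8.37 FPKM for Panx1 and 2.03 and 2.24 FPKM for Panx2 in the authors' deposited table, and 0 of 2 tested were called.

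**Figure D3:**
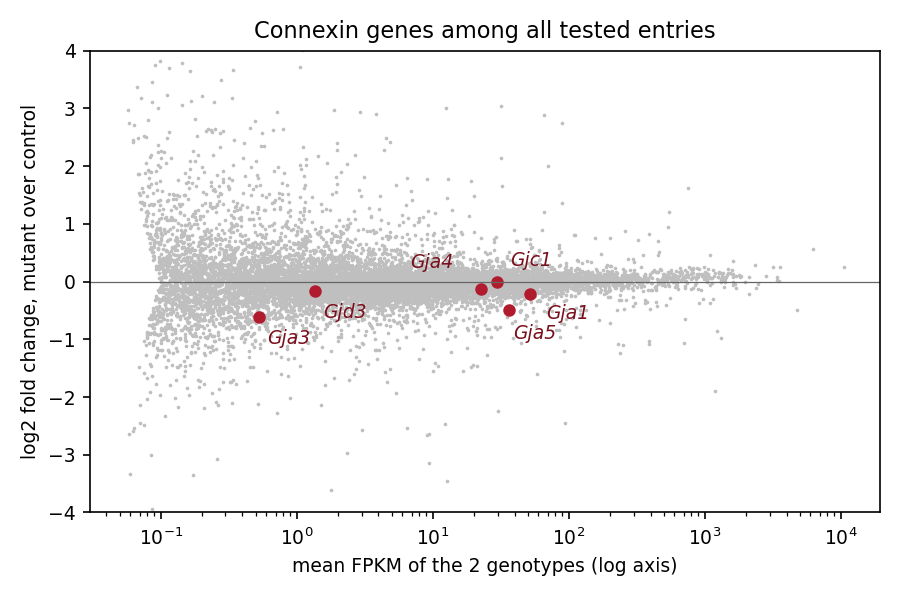
Log2 fold change (mutant over control) against mean FPKM on a log axis for every tested entry not at 0 in a genotype (grey points, of which 25 lie outside the axis) and the 6 tested connexins (red). Gja5 lies below all but 2.99% of entries with at least 1 FPKM, and Gjc1 lies at the centre line.

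Among transcription factors known to act on connexin genes, 1 of 16 tested rose and 0 fell, with a median log2 fold change of 0.11. Shox2, which restrains Nkx2-5 in the sinus node, is called higher in the authors' deposited table (q = 0.0161), at 2.55 FPKM for controls and 8.14 FPKM for mutants, by 1.68 on the log2 scale with an SE of 0.412. Nkx2-5, whose locus carries Cre in the mutants, stands there at 143.0 and 82.9 FPKM (q = 0.536), a log2 fold change of -0.79 with an SE of 0.295. Hopx, a homeodomain-only cofactor whose loss alters connexin expression in the conduction system, read 129.5 and 83.2 FPKM (log2 -0.64, q = 1.00). Tbx5, an activator of Gja5, read 16.3 and 18.2 FPKM (log2 0.16, q = 1.00). Every mutant heart carried Cre at Nkx2-5 and no control heart did. The part of the Nkx2-5 locus in the Gja5 value was therefore not tested and cannot be told apart from that of Casz1.

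Proteins that bind, traffic or anchor connexins gave 0 calls among 22 tested genes in the authors' deposited table, with 14 below 0, 8 above and a median of -0.05. Cav3, the muscle caveolin, read 36.0 and 21.0 FPKM (log2 -0.78, q = 0.824 in the authors' deposited table). Pkp2, a desmosomal protein of the intercalated disc, had a log2 fold change of -0.33 with q = 1.00 in the authors' deposited table. The connexin median of -0.19 lay below that of these partners, with no test between the lists.

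Of 14 tested conduction genes 1 rose and 0 fell by the test, and 11 lay below 0, with a median of -0.21. The chamber genes Kcne1 (log2 -1.18, q = 0.153) and Nppa (log2 -0.98, q = 0.746 in the authors' deposited table) had the lowest p of those below 0. Scn10a (log2 -1.09) and Cntn2 (log2 -1.37) lay below 0 by a similar size, at under 1 FPKM in both genotypes, and were not called. The remaining members lay closer to 0 or above it. Kcnj2 and Kcnj3 were nearly level (log2 -0.03 each), and Hcn4 (log2 0.70) and Cacna1d (log2 0.56) lay above 0, none of them called. Cacna1g carried a failed status and has no fold change or test. Beside Kcne1 and Nppa, whose mutant levels were 0.441 and 0.506 times the control level, Gja5 stood at 0.714 times and Gja1 at 0.859 times.

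Cardiomyocyte markers had nearly equal sums in the 2 genotypes. Of 10 cardiomyocyte markers 0 were called, 7 lay below 0, and the median log2 fold change was -0.15. Their summed level was 21091 FPKM for controls and 21504 FPKM for mutants (log2 0.03). Opposite differences enter that sum: Myl2 read 5549 and 3942 FPKM, and Myl7 5080 and 7496 FPKM. The ends of the cardiomyocyte list were Myl2 (log2 -0.49), the ventricular light chain, and Myl7 (log2 0.56), the atrial one. Actn2 read -0.32, and all 3 had q = 1.00 in the authors' deposited table. Of 6 epicardial markers 0 were called, 5 lay below 0, and the sums were 150.3 and 144 FPKM, with Wt1, Aldh1a2 and Upk1b at the lowest p. Smooth muscle markers Actg2 and Lmod1 rose, 2 of 6 tested, and 0 fell, while Acta2 was marked as holding too many fragments and has no test. Their sums were 498 and 909 FPKM, most of it from Tagln. Of 5 tested neural crest and neuron markers 0 were called, with sums of 16.6 and 21.1 FPKM and with Elavl4, Tubb3 and Stmn2 at the lowest p among expressed members. Among 5 tested erythroid and macrophage markers Lyz2 fell and 0 rose, with sums of 183 and 189 FPKM, and 3 embryonic globins carried the same mark as Acta2 and were not tested. No tested marker of these lists was at 0 in either genotype. The part of any of these cell types in the connexin values was not tested.

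**Figure D4:**
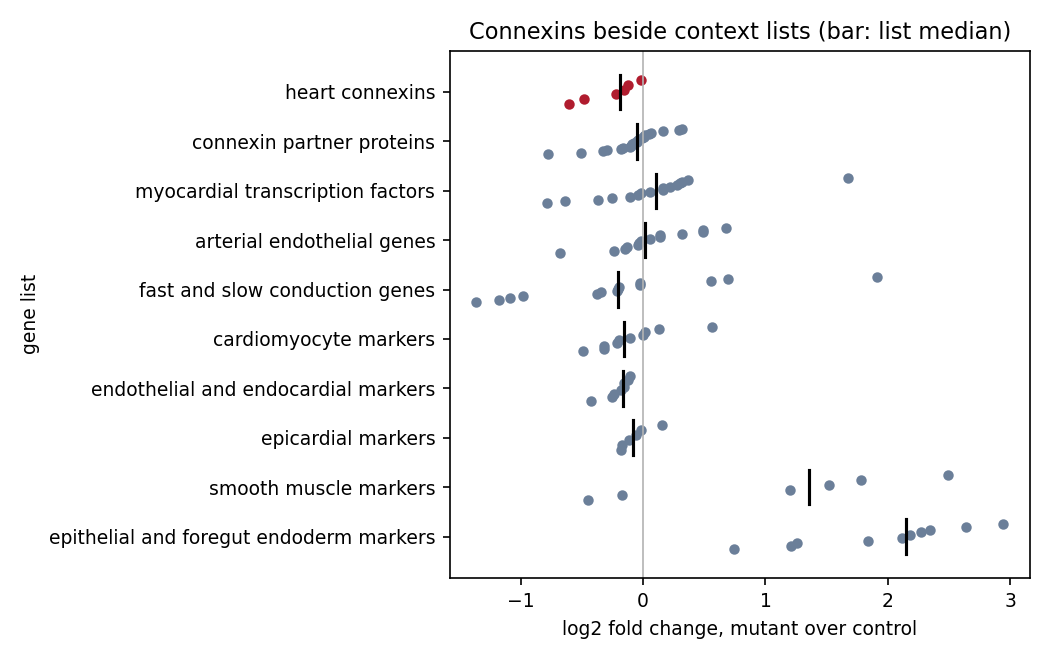
Log2 fold change (mutant over control) of each tested gene (points) in the heart connexins and 9 context lists, with a bar at each list's median. The connexin median of -0.19 lies close to those of the conduction genes (-0.21), endothelial markers (-0.17) and cardiomyocyte markers (-0.15). That of the epithelial markers lies at 2.15.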

How the data were processed

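RNA-seq of 6 whole hearts (3 control, 3 mutant) is summarised in 1 table. Tools listed in the submitters' processing notes were Cufflinks 2.1.1 with Cuffdiff, the aligners Bowtie2 2.1.0.0 and TopHat2 2.0.8, and also FastQC 0.10.1 and SAMtools 0.1.19.0, with build mm10. Settings for strand and normalisation are not given in the sources used here. The authors deposited FPKM as 1 value per genotype, per the file headers. They also deposited p-values and q-values, the authors' own, for 15387 entries of status OK, and 7742 were marked too low for a test (highest FPKM 0.100). The test statistic, a score deposited by the authors, has the opposite sign to the fold change. Deposited p matched its two-sided normal tail within 2.82e-06 and q a Benjamini-Hochberg adjustment within 1.87e-05, so SE was taken as the log2 fold change over that statistic, in size. Simulated data, drawn with normal errors of a set SE, checked only the arithmetic of this step. They cannot show that the SE is right for these hearts.

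RefSeq identifiers were matched to a GRCm38.p6 gene table, which named 98.75% of entries. Starts were moved to count from 1. Promoters came from RefSeq (GRCm38.p6), where 5 of the 7 genes matched. Genes and lists were chosen with earlier results of these data known. Named genes were the 7 connexins, Casz1, Nkx2-5, other connexins or pannexins with at least 1 FPKM, and in each list all called genes, the 3 lowest p among expressed members and members without a test; others were chosen after their values were seen. A few named by this rule are not reported here. No gene was named for likeness of pattern, since each has only 2 values. Alternatives covered thresholds, a filter at 1 FPKM, pseudocounts and centring. Python 3.11.15, numpy 2.4.6, pandas 2.3.3, scipy 1.17.1 and matplotlib 3.10.9 were used.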

Additional observations from a re-analysis of the deposited data

How the results depend on the processing

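No connexin passed at q under 0.1 or 0.2, or after p was adjusted again over entries with at least 1 FPKM, where Gja5 had q = 1.00. The count of the 6 tested heart connexins at an unadjusted p under 0.05 was 0 and became 1 (Gja5) at p under 0.1. The median log2 fold change of the 6 tested genes, -0.19, ran from -0.18 to -0.16 with pseudocounts of 0.1 and 1 FPKM, centring or a filter at 1 FPKM in both genotypes. Centring turned Gjc1 from -0.02 to 0.0016, and none of the other 5 changed sign under these settings. Leaving out a heart was not possible because the table has 1 pooled value per genotype. No paired analysis was possible because the columns carry no replicate numbers. Depth is unknown, and intervals assume a normal distribution.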
